A study of Mus musculus with 8 samples.

Results

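The 10 genes of the vascular endothelial growth factor (VEGF) system, 5 ligands (Vegfa, Vegfb, Vegfc, Vegfd and Pgf), 3 tyrosine kinase receptors (Kdr, Flt1 and Flt4) and 2 co-receptors (Nrp1 and Nrp2), were followed in the mouse heart after transverse aortic constriction (TAC), which narrows the aortic arch and loads the left ventricle with pressure. The members were chosen by gene symbol and are 10 of the 32285 genes listed in every sample. Hearts of male wild type C57BL/6J mice, 8 weeks old, were studied after a sham operation and at 2, 4 and 6 weeks after TAC (TAC-2w, TAC-4w, TAC-6w). The study gives this age for the mice that were operated on, and the labels give no time after the sham operation. Each of the 4 conditions has 1 spatial transcriptomics (ST) section, in which a spot reads a small region of tissue that can hold several cells, and 1 droplet library. The protocol in the labels is for single nuclei and the study's methods are for enzymatically released cells, and the units of the libraries are called cells here. No transgene, deletion or drug is given for any group, and the labels name no animal for a section or a library. With 1 sample a condition no difference between conditions could be tested. The intervals given are exact 95% intervals that cover counting error only, not the spread between animals.

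VEGF-A binds KDR (VEGFR2), which carries most of its signal for endothelial growth and permeability, and FLT1 (VEGFR1), which binds it more tightly and signals less. VEGF-B and placental growth factor (Pgf) bind FLT1. VEGF-C and VEGF-D act on FLT4 (VEGFR3), the receptor known for lymphatic vessels, and VEGF-C after processing also acts on KDR. The neuropilins Nrp1 and Nrp2 are co-receptors for VEGFs and receptors for class 3 semaphorins, and in the heart the balance of capillary growth with myocyte growth under pressure load is a classic setting of this system.

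The sections held 1228 to 2193 spots over tissue with 25996378 to 48754396 unique molecular identifiers (UMIs, counted molecules), and mitochondrial genes took 51.5% of them in sham and 42.2% to 44.2% after TAC. The libraries listed 5854 to 10275 barcodes, of which 5399 to 7965 remained after filtering, and each pair of libraries shared 8 to 19 barcodes. The TAC-4w library stood apart, since B cell-like cells were 37.2% of its cells, neutrophil-like cells 19.2% and platelet-like cells 8.47%, while fibroblast-like cells were 6.61% against 51.3% to 56.3% in the other libraries. Each result that rests on the TAC-4w library is therefore set beside the values of the other libraries. Per the labels 1 batch held the sham and TAC-2w sections, and the library of TAC-6w shared its batch with that of sham. For the other conditions batch and time after TAC cannot be told apart.

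Levels are given as UMIs per 1000000 UMIs of a section, or of all cells of a class in a library (CPM), and were compared within a gene across classes or conditions, not between genes. Counts of this kind come from 1 end of a transcript, so splice forms of Vegfa and the soluble form of Flt1 were not told apart. Cells fell into 18 clusters named by marker genes, with the members and the genes of the VEGF pathway lists kept out of the clustering. Endothelial cell-like cells were 1735, fibroblast-like 11019, macrophage-like 4294, neutrophil-like 1663, mural cell-like 220 and cardiomyocyte-like 213. The cardiomyocyte-like cells were few, and their leading genes included both ventricular Myl2 and atrial Myl7, Myl4 and Sln.

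Of the 10 members, 6 had their highest level in endothelial cell-like cells, namely Vegfc, Kdr, Flt1, Flt4, Nrp1 and Nrp2. The other 4, all ligands, were led by neutrophil-like cells (Vegfa), cardiomyocyte-like cells (Vegfb) and fibroblast-like cells (Vegfd and Pgf). For every member the lowest library of the leading class lay above the highest library of the class ranked next, among libraries with at least 20 cells of the class. How many of all genes were separated in this way, or led by endothelial cell-like cells, was not counted. These counts therefore only describe the members.

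**Figure D1:**
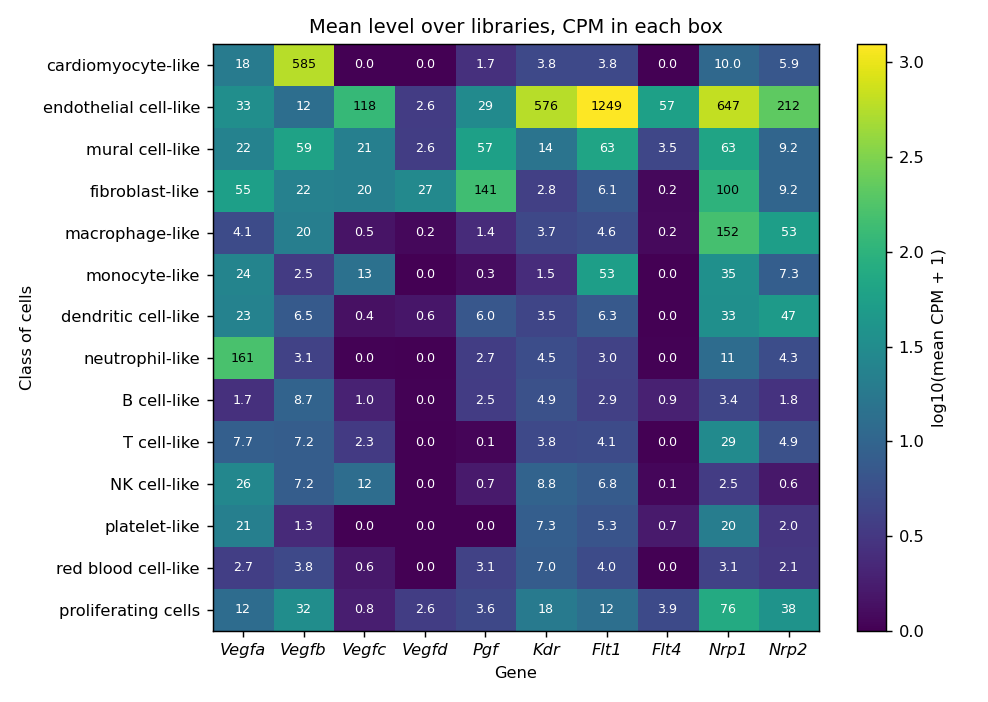
Level of each member (horizontal) by cell class (vertical), as the mean CPM, printed in each box and coloured as log10(CPM + 1), over the libraries with at least 20 cells of the class, 1 library for each condition. Kdr, Flt1 and Flt4 are bright in the endothelial cell-like row, while Vegfa peaks in neutrophil-like, Vegfb in cardiomyocyte-like and Vegfd and Pgf in fibroblast-like cells.

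Vegfa, the ligand of most angiogenic responses and a hypoxia-responsive gene, stood at 70.5, 77.3, 77.4 and 80.4 CPM in the sections, given here and below from sham through TAC-2w and TAC-4w to TAC-6w. Its ratios to sham were 1.10 (interval 1.04 to 1.16), 1.10 (1.03 to 1.17) and 1.14 (1.08 to 1.21). All 3 TAC sections thus sat slightly above sham, but by less than the median gene at TAC-4w and TAC-6w, and scaling to a total free of mitochondrial and ribosomal-RNA-like features made the same ratios 0.937, 0.918 and 0.988. Relative to the whole section, Vegfa had no direction that held under both scalings.

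Among the cells, Vegfa was highest in neutrophil-like cells, at 179, 180, 105 and 182 CPM in the library of sham and those of TAC-2w, TAC-4w and TAC-6w (mean 161 ± 37.3, SD over 4 libraries). Fibroblast-like cells followed at 58.7, 41.6, 61.1 and 59.8 CPM, and endothelial cell-like cells at 31.9, 19.1, 41.7 and 37.9 CPM, and these neighbours overlapped in range. Cardiomyocyte-like cells, which could be read in 3 libraries, held 12.6 to 24.8 CPM on 16 UMIs. Between the neutrophil-like clusters, Vegfa was higher in cluster 5, led by Acod1, Il1r2 and Il1b, than in cluster 14, led by the granule genes Ngp, Camp and Ltf. In the TAC-4w library the values were 127 and 74.4 CPM, and in the TAC-6w library 255 and 95.7 CPM. Because neutrophil-like cells were few outside TAC-4w, most Vegfa UMIs of a library came from fibroblast-like cells, on average 73.0% (29.4% to 87.8%), against 14.8% from neutrophil-like cells, whose share reached 48.4% in the TAC-4w library. These are shares of the cells captured in a library, where cardiomyocyte-like cells were few, and not shares of the tissue.

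Vegfb, a FLT1 ligand best known from heart and muscle, stood at 168, 242, 184 and 174 CPM in the sections in the same order, with its highest value at TAC-2w. Ratios to sham were 1.44 (1.39 to 1.5), 1.10 (1.05 to 1.14) and 1.04 (1.00 to 1.08). Without mitochondrial and ribosomal-RNA-like features the TAC-2w ratio was 1.24 and the later ones turned below 1, at 0.917 and 0.902. The cardiomyocyte markers of the sections had ratios of 1.14, 1.22 and 1.05, and per 1000 UMIs of those markers Vegfb gave 9.34, 11.8, 8.38 and 9.27 UMIs, so the TAC-2w section was also highest on this scale.

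In the libraries Vegfb was highest in cardiomyocyte-like cells at 508, 471 and 776 CPM in sham, TAC-2w and TAC-4w (mean 585 ± 167, SD over 3 libraries). The TAC-6w library had only 10 such cells and 5 Vegfb UMIs, or 273 CPM with an interval of 88.6 to 637. Mural cell-like cells came next at 59.2 CPM over 2 libraries, followed by proliferating cells (31.8), fibroblast-like cells (22.1) and macrophage-like cells (20.3), whose ranges overlapped from proliferating cells downwards. A Vegfb UMI was seen in 69.2%, 60.3% and 69.6% of cardiomyocyte-like cells of the first 3 libraries, against 1.72%, 3.21% and 3.83% of B cell-like cells, at median depths of 2054, 2495 and 2108 UMIs against 3057.5, 3632.5 and 4350.

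Vegfc, a ligand of FLT4 that drives lymphatic growth, stood at 4.73, 4.61, 3.26 and 7.19 CPM in the sections. Its ratios to sham were 0.975 (0.779 to 1.23), 0.688 (0.525 to 0.901) and 1.52 (1.23 to 1.88). The TAC-4w section was lowest and the TAC-6w section highest. In endothelial cell-like cells Vegfc stood at 60.8, 53.3, 226 and 132 CPM, against 21.0 in mural cell-like cells over 2 libraries and 18.4 to 25.1 in fibroblast-like cells. The section and the library of TAC-4w thus lay on opposite sides of sham for Vegfc, with the library value coming from its endothelial cells alone. Fibroblast-like cells, being many, still gave on average 61.1% of Vegfc UMIs of a library and endothelial cell-like cells 35.9%, while in the TAC-4w library these shares were 10.8% and 86.9%.

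Vegfd, the other FLT4 ligand, stood at 2.00, 1.11, 2.85 and 2.98 CPM in the sections, on the fewest UMIs of the members (52, 54, 91 and 144). Ratios to sham were 0.554 (0.371 to 0.826), 1.42 (1.00 to 2.04) and 1.49 (1.08 to 2.09). TAC-2w was below sham and the later sections above it. Fibroblast-like cells held 96.5% to 98.2% of Vegfd UMIs in every library, at 21.7, 30.1, 43.4 and 14.1 CPM. The class ranked next, proliferating cells, had 2.65 CPM on 8 UMIs, and no Vegfd UMI was found in cardiomyocyte-like, monocyte-like, neutrophil-like, platelet-like, red blood cell-like, T cell-like or NK cell-like cells.

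Pgf, a FLT1 ligand induced in injured and growing vessels, stood at 9.62, 6.05, 10.8 and 7.10 CPM in the sections. Ratios to sham were 0.629 (0.530 to 0.748), 1.12 (0.949 to 1.32) and 0.739 (0.626 to 0.873). Sections at TAC-2w and TAC-6w were below sham, and the TAC-4w section overlapped it and turned to 0.937 without mitochondrial and ribosomal-RNA-like features. Pgf in fibroblast-like cells was 182, 139, 83.7 and 159 CPM, highest in sham and lowest at TAC-4w, and these cells gave on average 91.7% of its UMIs. Mural cell-like cells (57.0 CPM over 2 libraries) and endothelial cell-like cells (29.0 ± 19.2, SD over 4 libraries) followed.

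**Figure D2:**
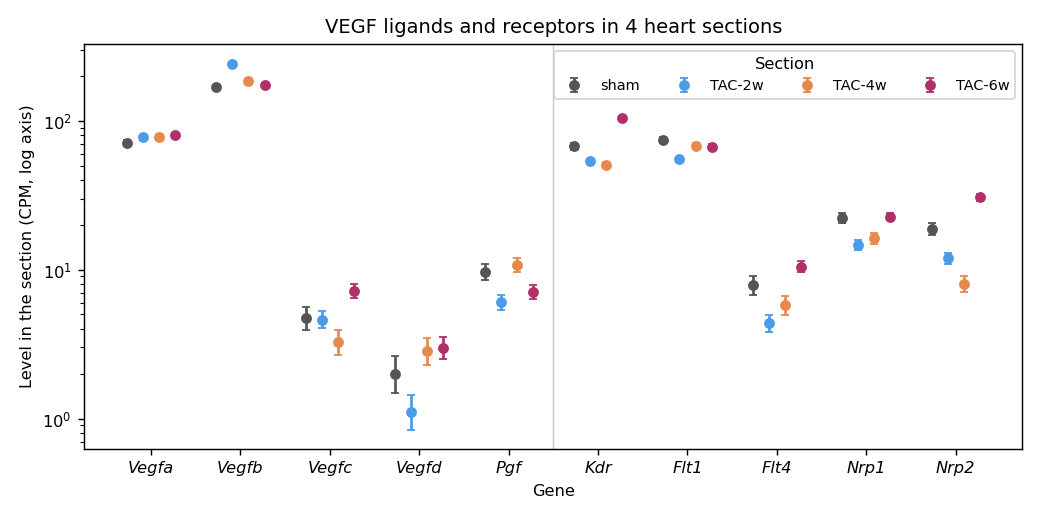
Level of each member in the 4 ST sections in CPM on a log axis, with exact 95% Poisson intervals, which cover counting error only. Kdr and Nrp2 are highest at TAC-6w (105 and 30.6 CPM), Vegfb is highest at TAC-2w (242 CPM), and Vegfa lies between 70.5 and 80.4 CPM throughout.

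Kdr, the main signalling receptor of VEGF-A, stood at 67.2, 53.3, 50.5 and 105 CPM in the sections. Its ratios to sham were 0.794 (0.747 to 0.844), 0.751 (0.701 to 0.804) and 1.56 (1.48 to 1.65). The first 2 TAC sections lay below sham and TAC-6w above it. In bulk sections of this kind, fewer cells of a type and less RNA per cell cannot be told apart. The 6 endothelial markers together moved alike, at 332, 263, 284 and 480 CPM. Kdr per 1000 UMIs of those markers was 202, 203, 178 and 219, a range narrower than that of its CPM.

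Flt1, the high-affinity receptor of VEGF-A, VEGF-B and Pgf, stood at 74.0, 55.2, 68.0 and 67.2 CPM, highest in the sham section, with ratios of 0.746 (0.704 to 0.792), 0.918 (0.863 to 0.977) and 0.907 (0.857 to 0.961). Per 1000 endothelial marker UMIs it gave 223, 210, 240 and 140. The TAC-6w section was the lowest on that scale (ratio 0.628, 0.593 to 0.665), where Kdr had a ratio of 1.08 (1.03 to 1.14). Flt4 stood at 7.85, 4.35, 5.79 and 10.5 CPM with ratios of 0.554 (0.455 to 0.675), 0.738 (0.602 to 0.905) and 1.34 (1.13 to 1.58), which is the order of the endothelial markers.

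The promoters of the 3 receptors are shown because the receptors were the members most restricted to endothelial cells, with 88.3%, 90.7% and 90.5% of the Kdr, Flt1 and Flt4 UMIs of a library in that class on average. The 250 bases before the start of each gene were taken from RefSeq on build GRCm38.p6, at chr5:75978456-75978705 on the minus strand for Kdr, chr5:147726012-147726261 on the minus strand for Flt1 and chr11:49609429-49609678 on the plus strand for Flt4. Capitals mark GGAAG on the same strand and CTTCC for the opposite one. These letters are a form of the motif read by ETS factors, a family with known roles in endothelial cells. Other forms of that motif, such as GGAA followed by another base, were not searched or marked.
Kdr: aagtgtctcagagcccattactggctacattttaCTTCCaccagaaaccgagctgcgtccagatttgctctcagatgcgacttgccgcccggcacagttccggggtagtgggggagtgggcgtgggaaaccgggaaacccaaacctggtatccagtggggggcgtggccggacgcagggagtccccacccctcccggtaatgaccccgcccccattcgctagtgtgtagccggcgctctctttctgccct
Flt1: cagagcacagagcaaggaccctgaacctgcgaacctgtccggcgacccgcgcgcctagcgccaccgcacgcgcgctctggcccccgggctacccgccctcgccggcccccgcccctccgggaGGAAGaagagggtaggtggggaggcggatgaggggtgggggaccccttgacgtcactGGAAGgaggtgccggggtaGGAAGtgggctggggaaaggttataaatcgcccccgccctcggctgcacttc
Flt4: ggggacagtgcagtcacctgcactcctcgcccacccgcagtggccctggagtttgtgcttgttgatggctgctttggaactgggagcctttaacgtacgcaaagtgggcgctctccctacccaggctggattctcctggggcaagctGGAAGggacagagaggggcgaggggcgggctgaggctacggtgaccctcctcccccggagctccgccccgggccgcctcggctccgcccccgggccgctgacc
The Flt1 promoter held 3 matches to these letters, at 128, 71 and 52 bases before the start. Kdr held 1 on the opposite strand at 216 bases and Flt4 held 1 at 103 bases. Of 32851 promoters, 64.1% held at least 1, so a match is common and is a description, not a binding site. A form of the core of hypoxia-response elements, ACGTG or CACGT, was in 16.6% of promoters. These letters were in none of the 3 receptor promoters and in 1 of the 2 listed Vegfa promoters, at 211 bases before the start. Other forms of that core, such as GCGTG or its reverse CACGC, were not searched or marked. The printed Kdr bases hold GCGTG and the printed Flt1 bases hold CACGC.

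In endothelial cell-like cells Kdr stood at 451, 708, 715 and 432 CPM in the libraries, from sham to TAC-6w, and the class ranked next, proliferating cells, at 18.1. Flt1 stood at 932, 1059, 1770 and 1235 CPM, with mural cell-like cells next at 62.7. Monocyte-like cells also carried Flt1, a receptor they are known to use in migration, at 31.5, 49.7, 34.1 and 97.9 CPM, above all libraries of proliferating cells, the class ranked after them. Flt4 stood at 42.9, 49.96, 73.2 and 60.8 CPM, and the class ranked next had 3.95.

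The mural values were shared with a sub-cluster led by endothelial genes such as Cldn5, Cdh5 and Ptprb, which held 71 of the 220 cells. Without it, a choice made after the data were seen, mural cell-like cells had 11.1 CPM of Flt1 in place of 62.7, no Kdr UMI in place of 14.5 CPM, 29.9 CPM of Pgf in place of 57.0 and 8.74 CPM of Vegfc in place of 21.0. Mixed droplets as a source of these receptors were not tested.

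A Flt1 UMI was found in 86.2%, 84.0%, 94.5% and 90% of endothelial cell-like cells in the 4 libraries, against 1.29%, 0.641%, 1.15% and 0.219% of B cell-like cells, a class that should lack it. Median depths were 5174.5, 3005, 7056 and 3652.5 UMIs in endothelial and 3057.5, 3632.5, 4350 and 1902 in B cell-like cells. With each cell thinned to 1000 UMIs, which left 407 of 492, 455 of 568, 463 of 475 and 187 of 200 endothelial cell-like cells, the shares with Flt1 were 59.6%, 62.9%, 75.7% and 65.4%. Those with Kdr were 38.6%, 54.3%, 47.7% and 32.6%. The TAC-2w library was the highest for Kdr and the TAC-4w library for Flt1 on the thinned scale.

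Nrp1, co-receptor of KDR, stood at 22.3, 14.7, 16.3 and 22.7 CPM in the sections, with ratios of 0.659 (0.590 to 0.737), 0.731 (0.648 to 0.824) and 1.02 (0.921 to 1.13). Nrp2, co-receptor of FLT4, stood at 18.8, 11.9, 8.05 and 30.6 CPM, with ratios of 0.635 (0.562 to 0.717), 0.428 (0.366 to 0.498) and 1.63 (1.47 to 1.81). Relative to its lowest section Nrp2 had the widest range of the 10 members, lowest at TAC-4w and highest at TAC-6w. Per 1000 endothelial marker UMIs it still gave 56.7, 45.4, 28.4 and 63.8, so the TAC-4w section was low on this scale too (ratio 0.501, 0.429 to 0.584).

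The neuropilins were the receptors with the widest spread over cell classes. Nrp1 in endothelial cell-like cells stood at 665, 781, 711 and 429 CPM, in macrophage-like cells at 174, 223, 90.8 and 119 CPM, and in fibroblast-like cells at 80.7, 98.1, 153 and 67.3 CPM. Macrophage-like and fibroblast-like cells overlapped in range. By UMIs of a library, fibroblast-like cells gave 41.3% of Nrp1, endothelial cell-like cells 34.7% and macrophage-like cells 19.6% on average. Nrp2 in endothelial cell-like cells stood at 155, 247, 236 and 210 CPM, and macrophage-like (53.3), dendritic cell-like (47.2) and proliferating cells (38.0) followed with overlapping ranges. A Nrp2 UMI was seen in 27.2%, 36.4%, 15.1% and 14.5% of macrophage-like cells at median depths of 7315, 8849.5, 6965.5 and 3666 UMIs, against 0.862%, 0.641%, 0.618% and 0.219% of B cell-like cells. Thinned to 1000 UMIs these macrophage shares were 4.92%, 6.12%, 2.69% and 4.24%. Ratios to sham in macrophage-like cells were 1.28, 0.521 and 0.682 for Nrp1 and 1.26, 0.678 and 0.854 for Nrp2, and both were lowest in TAC-4w, which had 186 such cells.

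The counts of members past a fold of 1.5 were read against all genes with at least 50 UMIs in either section. At TAC-2w no member was at least 1.5-fold higher than sham and 5 of 10 were at least 1.5-fold lower, namely Vegfd, Pgf, Flt4, Nrp1 and Nrp2. Of all 11423 genes compared, 4.95% were higher and 3.27% lower by that fold. At TAC-4w no member was higher and 1, Nrp2, was lower, where 15.2% of 11205 genes were higher and 2.5% lower. At TAC-6w 3 members were higher, Vegfc, Kdr and Nrp2, and none lower, where 17.6% of 11952 genes were higher and 0.962% lower. The median ratio of the members was 0.703, 0.835 and 1.24, beside 1.03, 1.16 and 1.24 over all genes (0.05, 0.22 and 0.30 on the log2 scale). At TAC-2w only Vegfb (1.44) and Vegfa (1.10) lay above the median gene, and at TAC-4w only Vegfd (1.42). All other members lay below it at these times. At TAC-6w Pgf (0.739), Flt1 (0.907), Nrp1 (1.02), Vegfb (1.04) and Vegfa (1.14) lay below it and the other members above it.

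These counts depended on the total used for scaling. Without mitochondrial and ribosomal-RNA-like features, which took 51.8% of UMIs in sham and 42.4% to 44.4% after TAC, the median gene was at 0.884, 0.972 and 1.07. The counts then were 6 lower at TAC-2w, with Flt1 (0.639) beside the earlier 5, 5 lower at TAC-4w (Vegfc, Kdr, Flt4, Nrp1 and Nrp2) and 0 higher and 1 lower (Pgf) at TAC-6w. Shares of all genes higher and lower became 1.55% and 10.0%, 7.50% and 6.30%, and 8.48% and 2.06%. Kdr and Nrp2 at TAC-6w kept their direction, with ratios of 1.36 and 1.41, and Nrp1 at TAC-6w turned to 0.885.

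Within the sections, Pgf went with the markers of its source cells in every section. When the spots of a section were ordered by their share of fibroblast marker UMIs and split into 3 equal groups, Pgf was higher in the richest than in the poorest group in every section, by 2.76, 2.03, 2.24 and 1.59-fold. In the sham section this was 15.3 against 5.55 CPM and in the TAC-6w section 8.45 against 5.31 CPM. Vegfc gave 1.78, 1.37, 1.57 and 1.60-fold, with intervals that held 1 at TAC-2w and TAC-4w, and Vegfd 1.59, 2.29, 1.86 and 1.33-fold, with intervals that held 1 in sham and TAC-6w. Vegfa, most of whose library UMIs were also in fibroblast-like cells, gave 0.895, 0.991, 0.923 and 1.01-fold, with intervals that held 1 in all 4 sections. Split by endothelial markers, Flt4 gave 2.17, 1.27, 1.86 and 1.95-fold, with an interval that held 1 at TAC-2w, and Kdr 1.33, 1.13, 1.23 and 1.25-fold. In the same split Nrp1 gave 1.31, 1.22, 0.887 and 1.19-fold and Vegfc, whose level was highest in endothelial cell-like cells, 1.21, 1.56, 0.910 and 1.21-fold. The interval of Nrp1 held 1 at TAC-4w, and that of Vegfc in all sections but TAC-2w. Spots with more of a marker also differed in depth, and its part in these ratios was not tested.

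The edge of the tissue, spots with fewer than 6 neighbours over tissue, also differed from the interior. Vegfd at the edge was 1.32, 1.99, 2.35 and 3.71-fold its interior level in the sections, from sham to TAC-6w. The interval lay above 1 at TAC-4w (1.35 to 3.90) and TAC-6w (2.52 to 5.38), where the levels were 8.76 CPM at the edge and 2.36 CPM inside. Flt4 gave 0.922, 1.09, 2.30 and 1.96-fold, again with the later sections above 1. Pgf went the other way at 0.403, 0.683, 0.515 and 0.701-fold, with intervals that held 1 at TAC-2w and TAC-6w.

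Endothelial cell-like cells, as the class of the receptors, were compared between libraries. At TAC-2w Kdr (1.57-fold, 1.47 to 1.67) and Nrp2 (1.60, 1.43 to 1.78) were at least 1.5-fold higher than sham and Vegfa was lower (0.599, 0.435 to 0.819), where 4.15% of 7573 genes were higher and 3.53% lower. At TAC-4w 6 of 9 members compared were higher, namely Vegfc (3.72, 3.20 to 4.35), Pgf (3.46, 2.41 to 5.08), Flt1 (1.90, 1.82 to 1.98), Flt4 (1.71, 1.40 to 2.09), Kdr (1.59, 1.49 to 1.69) and Nrp2 (1.53, 1.38 to 1.70). Vegfb was lower (0.375, 0.237 to 0.581), where 19.3% of 8156 genes were higher and 12.7% lower. Fewer members were higher at TAC-4w with thinned cells and with the mean over cells, where Kdr lay below sham, as described at the end. At TAC-6w 8 members were compared. Vegfc was higher (2.17, 1.71 to 2.74) and Vegfb (0.356, 0.126 to 0.817) and Nrp1 (0.645, 0.577 to 0.720) were lower, where 11.6% of 7115 genes were higher and 22.8% lower. Pgf was not among the members compared, with 45 UMIs against 37 in sham, under the minimum of 50. Its ratio at TAC-6w was 4.69 (2.97 to 7.45). The medians of the members were 1.17, 1.59 and 1.26 beside 1.00, 1.11 and 0.928 over all genes.

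**Figure D3:**
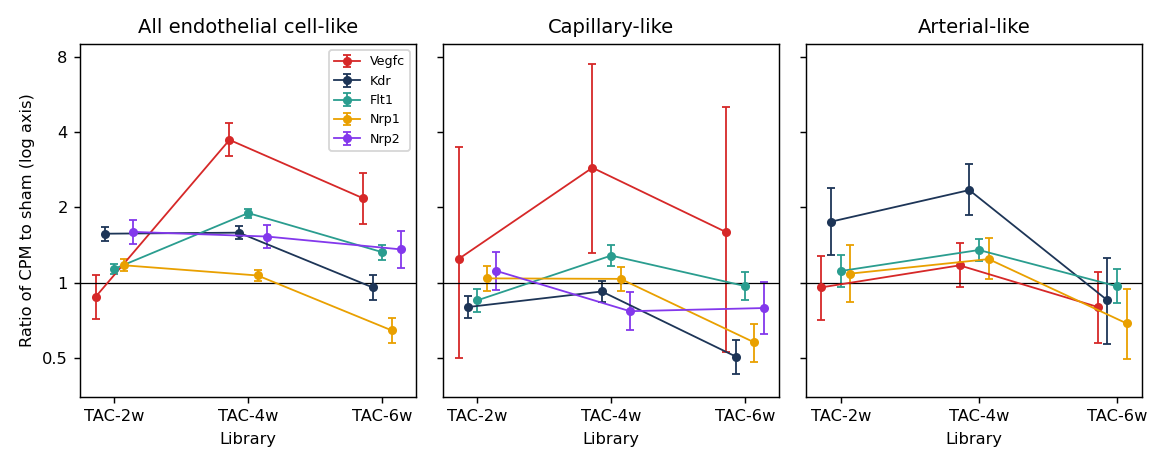
Ratio to sham of Vegfc, Kdr, Flt1, Nrp1 and Nrp2 in all endothelial cell-like cells and in the capillary-like and arterial-like cells among them, on a log axis with exact 95% conditional binomial intervals (counting error only). Nrp2 is left out of the arterial-like panel for want of UMIs; Kdr at TAC-4w is above 1 in all endothelial cell-like cells (1.59) and below 1 in capillary-like cells (0.923).

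The make-up of the endothelial class differed between these libraries. Sub-clusters named by markers held capillary-like cells at 13.0%, 18.3%, 38.3% and 38.5% of endothelial cell-like cells, from sham to TAC-6w, arterial-like cells at 8.13%, 5.11%, 26.5% and 25%, and venous-like cells at 5.08%, 4.05%, 24.6% and 16%. Endocardial-like cells, the Npr3-bearing lining of the chambers, held 31.9%, 17.6%, 0.842% and 7.5%. Unnamed sub-clusters, led by haemoglobin, fibroblast or immune genes, held 41.7%, 53.3%, 8.84% and 13%. Of these, sub-clusters of 231 and 128 cells scored highest for capillary markers, at 1.46 and 1.56. The named capillary-like sub-clusters scored 1.18 to 1.55. By library the unnamed ones held 73, 115, 31 and 12 cells and 37, 90, 0 and 1 cells. The capillary-like shares therefore depend on the naming rule. The summed levels of all 6 fibroblast markers in endothelial cell-like cells were 1564, 1163, 78.7 and 320 CPM. Those of the red blood cell markers were 8340, 6663, 1660 and 168 CPM, beside 4506 to 4938 CPM of the class's own markers. The 6 cardiomyocyte markers stood at 282, 385, 23.8 and 24.1 CPM in these cells. Vegfb, which was highest in cardiomyocyte-like cells, stood at 19.4, 15.2, 7.25 and 6.89 CPM in them. These shares and markers moved with some of the ratios above and not with others. Vegfb was lower in the later libraries, where the cardiomyocyte markers were also lower. Kdr was 1.57 of sham at TAC-2w, with a capillary-like share of 18.3%, and 0.957 at TAC-6w, with a share of 38.5%. The part of the shares and markers in the ratios was only examined within the subclasses.

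The members differed between endothelial subclasses. Among the named subclasses Kdr was highest in capillary-like cells, at 1480, 1183, 1366 and 751 CPM in the 4 libraries, against 181 to 498 in arterial-like, 235 to 417 in venous-like and 157 to 237 in endocardial-like cells of the libraries with at least 20 cells. The unnamed cells held 1250, 1518, 710 and 671 CPM of Kdr, above capillary-like cells in the TAC-2w library. Nrp1 was also highest in capillary-like cells, at 1081, 1126, 1120 and 624 CPM. Flt1 spread more evenly, with means of 1416.5 CPM in capillary-like, 1281 in arterial-like, 1712 in venous-like and 699 in endocardial-like cells, and the first 3 overlapped in range. Nrp2 was nearly missing from arterial-like cells (4.30 to 33.2 CPM on 40 UMIs) and stood at 376 to 545 CPM in capillary-like and 222 to 403 in venous-like cells. Nrp2 is known from veins, and here its levels in capillary-like cells reached above those in venous-like cells.

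**Figure D4:**
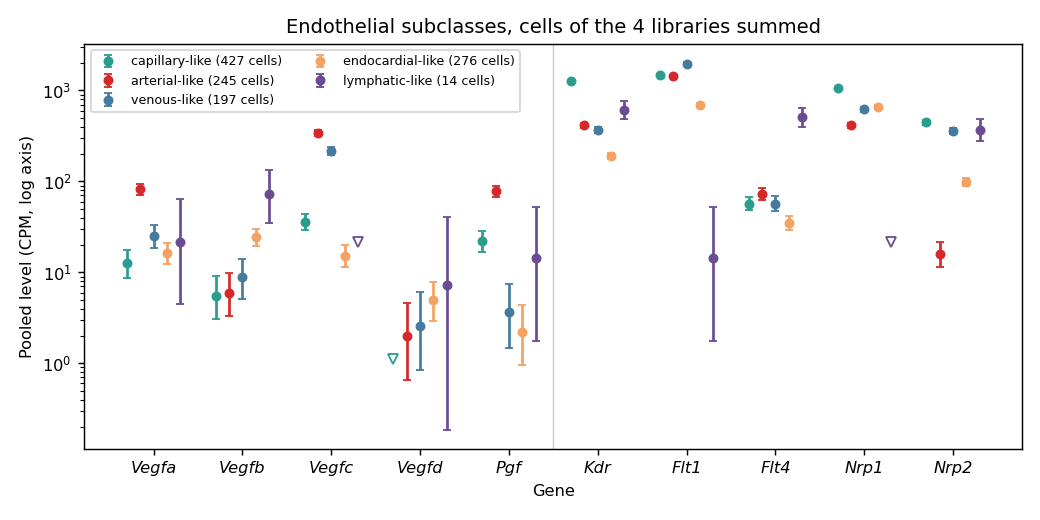
Level of each member in the endothelial subclasses, pooled over the 4 libraries, in CPM on a log axis with exact 95% intervals. Open triangles mark the floor of 3 UMIs where no UMI was found; Vegfc is highest in arterial-like cells (340 CPM) and Flt4 in lymphatic-like cells (513 CPM).

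Vegfc among endothelial cells was highest in those of larger vessels. Arterial-like cells held 312, 299, 366 and 250 CPM and venous-like cells 158, 178, 227 and 271 CPM, against 18.4, 22.9, 53.0 and 29.2 CPM in capillary-like cells. Pgf in arterial-like cells was 32.3, 22.1, 91.3 and 116 CPM, against 23.6, 43.3, 0.840 and 45.5 CPM in capillary-like cells, on 1 to 149 UMIs. The intervals of these subclasses overlapped in sham and TAC-2w and did not in the later libraries, where arterial-like cells were higher. The 14 lymphatic-like cells, from 3 libraries, held 71 Flt4 UMIs (513 CPM, 401 to 648), 85 of Kdr (615 CPM) and 51 of Nrp2 (369 CPM), but none of Nrp1 or Vegfc, where a count of 0 allows up to 21.7 CPM by a floor of 3 UMIs. FLT4 and Nrp2 are the receptors known for lymphatic vessels.

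Within subclasses several of the ratios changed. In capillary-like cells Kdr was 0.799 (0.720 to 0.888), 0.923 (0.838 to 1.02) and 0.507 (0.433 to 0.592) of sham, so the higher Kdr of the class at TAC-2w and TAC-4w was not seen in these cells. They leave out the unnamed sub-clusters that scored highest for capillary markers, which had most of their cells in sham and TAC-2w. In endocardial-like cells, the largest named subclass of the sham library, Kdr at TAC-2w was 1.51 (1.29 to 1.77) of sham. Kdr in arterial-like cells was 1.75 (1.29 to 2.39), 2.35 (1.86 to 2.99) and 0.851 (0.571 to 1.25), and in venous-like cells 1.06 (0.747 to 1.52), 1.5 (1.16 to 1.98) and 0.848 (0.555 to 1.28). Nrp2 in capillary-like cells was 1.12, 0.770 and 0.792, and in venous-like cells 1.33, 1.82 (1.37 to 2.47) and 1.25. Flt4 at TAC-4w was 0.913 (0.582 to 1.47) in capillary-like, 1.45 (0.914 to 2.43) in arterial-like and 2.09 (0.970 to 5.37) in venous-like cells. The lower Nrp1 of TAC-6w was present in capillary-like (0.577, 0.484 to 0.686) and arterial-like cells (0.687, 0.496 to 0.942), and in venous-like cells it stood at 0.786 (0.562 to 1.09).

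For the ligands, Vegfc in arterial-like cells was 0.958 (0.712 to 1.28), 1.17 (0.960 to 1.44) and 0.80 (0.573 to 1.11), far from the 3.72 of the whole class at TAC-4w. In venous-like cells it was 1.13, 1.44 (1.02 to 2.09) and 1.72 (1.09 to 2.73), and in capillary-like cells at TAC-4w 2.88 (1.32 to 7.46) on 7 UMIs in sham. Pgf in arterial-like cells was 0.686 (0.211 to 1.98), 2.83 (1.57 to 5.60) and 3.6 (1.76 to 7.80). Vegfb at TAC-4w was 0.480 (0.114 to 2.31) in capillary-like and 0.760 (0.196 to 4.30) in arterial-like cells. In venous-like cells it was 0.904 (0.193 to 8.48). These Vegfb intervals all held 1, on 2 to 4 UMIs in sham. Flt1 at TAC-4w was above sham in all 3 vessel subclasses, at 1.28 (1.17 to 1.42) in capillary-like, 1.35 (1.22 to 1.5) in arterial-like and 1.74 (1.54 to 1.97) in venous-like cells.

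Pericyte-like cells, found in sham and TAC-2w only, held Nrp1 at 571 CPM on 45 UMIs (417 to 764) in 54 cells, above the 62.7 CPM of the mural class as a whole. Smooth muscle cell-like cells (56 cells) held 6.98 CPM of Nrp1, and Vegfb at 71.8 CPM and Pgf at 44.9 CPM on 72 and 45 UMIs. Their low cell numbers allow no comparison between conditions.

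Fibroblast-like cells, the main source of Pgf and Vegfd UMIs, were made up of 3 clusters. Cluster 0, led by Pla1a, Pcsk6 and Cxcl14, had Pgf among its leading genes although Pgf was kept out of the clustering. Its Pgf level was 297, 250, 220 and 186 CPM from sham to TAC-6w. In cluster 1, led by Igfbp3, Sfrp2 and Gdf10, it was 86.9, 56.3, 45.4 and 71.7 CPM. Both clusters were highest in sham. Their ratios to sham were 0.842, 0.740 and 0.627 in cluster 0 and 0.647, 0.522 and 0.824 in cluster 1, while the class as a whole gave 0.763, 0.459 and 0.872, with cluster 0 making up 43.1%, 41.5%, 19.4% and 74.0% of its cells.

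**Figure D5:**
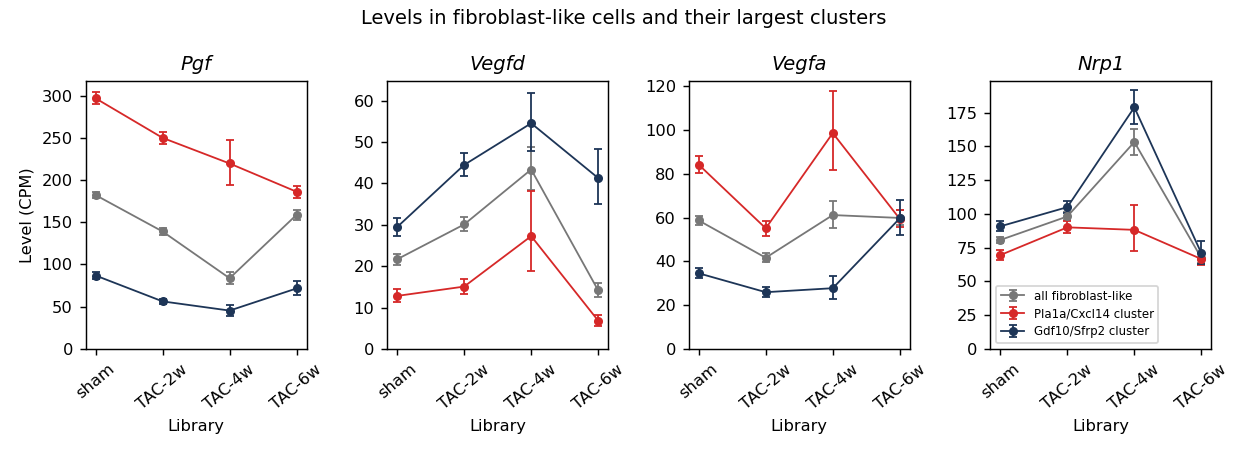
Levels of Pgf, Vegfd, Vegfa and Nrp1 in fibroblast-like clusters 0 (Pla1a/Cxcl14) and 1 (Gdf10/Sfrp2) and in all fibroblast-like cells by library, in CPM with exact 95% Poisson intervals. Pgf is higher in cluster 0 (186 to 297 CPM) than in cluster 1 (45.4 to 86.9 CPM) in every library, and Vegfd is higher in cluster 1.

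Vegfd showed the opposite preference. It stood at 12.8, 15.1, 27.3 and 6.81 CPM in cluster 0 and at 29.5, 44.5, 54.5 and 41.3 CPM in cluster 1, higher in cluster 1 in each library. Ratios to sham in the class were 1.39 (1.28 to 1.51), 2.00 (1.75 to 2.29) and 0.652 (0.568 to 0.746). Within cluster 0 they were 1.18, 2.13 and 0.532 and within cluster 1 they were 1.51, 1.85 and 1.40. The low TAC-6w value was thus found in cluster 0 and not in cluster 1, in the library where cluster 1 was 23.6% of the class against 53.3% in sham.

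Vegfa in fibroblast-like cells had ratios of 0.710 (0.668 to 0.754), 1.04 (0.935 to 1.16) and 1.02 (0.951 to 1.09). At TAC-6w cluster 0 gave 0.706 (0.651 to 0.765) and cluster 1 gave 1.73 (1.48 to 2.00), in opposite directions. Nrp1 in fibroblast-like cells had ratios of 1.22, 1.90 (1.77 to 2.04) and 0.834, with 1.97 (1.81 to 2.14) in cluster 1 and 1.27 (1.04 to 1.54) in cluster 0 at TAC-4w, where cluster 1 was 71.3% of the class against 53.3% in sham. In the 40 TAC-4w cells of cluster 10, led by Wif1 and Chad, Vegfa reached 206 CPM, against 63.7 to 81.3 in the other libraries.

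Genes of the pathway lists were counted by the same fold in the sections. The counts are to be read against the shares of all genes given above, where 17.6% were higher at TAC-6w and 15.2% at TAC-4w. The list of endothelial VEGF-responsive genes includes the member Pgf. These lists were counted on the total of all UMIs only and were not scaled to endothelial markers. Those 6 markers together were at 0.793, 0.854 and 1.44 of sham in the TAC-2w, TAC-4w and TAC-6w sections. Of 12 hypoxia-responsive genes, 0 were higher and 3 lower at TAC-2w, 2 higher and 1 lower at TAC-4w and none past the fold at TAC-6w. The ends of that list were Higd1a (1.43) and Pfkfb3 (0.604) at TAC-2w, and Pfkfb3, a glycolytic regulator, at 2.63 and Egln3, an oxygen-sensing prolyl hydroxylase, at 0.441 at TAC-4w. None of 8 hypoxia sensors and regulators passed in any section, and Hif1a was the highest at TAC-4w (1.32) and TAC-6w (1.47). Of the endothelial VEGF-responsive genes with enough UMIs, 1 of 10 was higher and 4 lower at TAC-2w, 2 of 10 higher and 3 lower at TAC-4w and 7 of 12 higher and none lower at TAC-6w, with medians of 0.769, 1.07 and 1.59. Nr4a1, an immediate-early nuclear receptor also induced by handling, was the highest at TAC-4w (7.24) and TAC-6w (4.16), Angpt2 the lowest at TAC-2w (0.240) and Apln, a tip cell ligand, the lowest at TAC-4w (0.0392, where sham had 6.39 CPM).

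Of 9 angiopoietin and Notch partners, 0, 2 and 1 were higher in order of time and none lower, with Angpt1 at 2.92 at TAC-4w and Tie1, which is also 1 of the 6 endothelial markers, at 1.57 at TAC-6w. Neuropilin ligands and plexins gave 0 higher and 2 lower of 8, 2 and 2 of 8, and 4 and 0 of 9, led by Sema3g (2.07) at TAC-4w. Genes of VEGF-C and VEGF-D processing gave none of 4, 1 higher and 1 lower of 5, and 2 and 1 of 5, and Ccbe1, which VEGF-C needs for its cleavage, was the lowest at TAC-4w (0.647) and TAC-6w (0.573). Signal transducers gave 0 of 12, 1 of 11 and 2 of 12 higher and none lower. Angiogenesis inhibitors gave 0 higher and 2 lower, 3 and 1, and 3 and 1 of 8, with Thbs1 at 3.16 at TAC-4w and Col18a1 at 2.04 at TAC-6w.

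In endothelial cell-like cells the same lists were counted against shares of all genes given above. VEGF-responsive genes gave 4 higher and 2 lower of 10 at TAC-2w, 6 and 4 of 10 at TAC-4w and 3 and 3 of 7 at TAC-6w. They were led by Apln (2.26), by Pgf (3.46), which is also a member, and by Pdgfb (3.11). The lowest of that list were Nr4a1 (0.555), Egr3 (0.140) and Plvap (0.245). Neuropilin ligands and plexins gave 2 of 7, 4 of 6 and 3 of 5 higher and none lower, led by Sema3d (4.13), a semaphorin, and then by Sema3g, an arterial one, at 4.42 and 3.34. Angiopoietin and Notch partners gave 0 of 7, 4 of 7 and 3 of 7 higher, with Jag1, a Notch ligand of arteries, at 2.56 and 3.40 in the later libraries. Epas1, the endothelial hypoxia-inducible factor, was the highest hypoxia regulator at TAC-4w (2.36) and TAC-6w (1.89). The libraries with more arterial-like cells were those with higher Sema3g and Jag1, and this was not tested.

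Hypoxia-responsive genes in these cells gave 1 higher and 1 lower of 8, 4 and 2 of 10, and 2 and 2 of 8, with Ankrd37 the highest in each library (1.96, 2.51 and 2.19). The lowest were Ddit4 (0.640), Adm (0.200) and Pfkfb3 (0.293). VEGF-C and VEGF-D processing gave 0 of 4, 3 of 4 and 2 of 4 higher, signal transducers 0 higher and 1 lower, 3 and 0, and 1 and 2 of 10, and angiogenesis inhibitors 0 and 1, 3 and 3, and 1 and 3 of 7. Cxcl10, an interferon-induced inhibitor, was the lowest of the last list at TAC-4w (0.0134) and TAC-6w (0.0902), at 50.9 CPM in sham.

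Across the 50 sums of a class in a library, which share libraries and total depth, the genes most like each member were found by Pearson r of log2(CPM + 10) among 13743 genes, as a description. Kdr was most like Tie1 (r = 0.963) and Emcn, both endothelial markers used in naming, and Cyyr1, Flt1 most like Cyyr1 (0.930), Samd12 and Pcdh17, and Flt4 most like Pcdh12 (0.986), Samd12 and C1qtnf9. For the ligands, Vegfd was most like Naaladl2 (0.981), Igsf10 and 9330159F19Rik, Pgf most like Nbl1 (0.935), Gpr161 and A4galt, and Vegfb most like Pdk2 (0.947), Apoo and Macrod1. Vegfc was most like Crispld1 (0.889), Fam181b and Fam107a, and Vegfa, the member with the weakest likeness, most like Abhd5 (0.779), Chp1 and Dhrs7. The neuropilins were most like Ctnnd1 (0.910), Dock1 and Trim47 for Nrp1 and Fnbp1l (0.912), Nostrin and Adam15 for Nrp2.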

How the data were processed

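The 4 sections and 4 libraries were deposited by the authors as UMI counts per gene and barcode, read against mm10 with the 10x pipelines. The file headers name Cell Ranger 6.0.0 and Space Ranger 1.2.0, the submitters' processing notes 7.0.0 and 1.3.1, and which was used is not settled here. The labels give a 3′ kit. The members, gene lists and tests were chosen with earlier results of these data known.

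Cells with 200 to 6000 genes, 500 to 30000 UMIs and under 15% mitochondrial UMIs were kept. Of these, the 3.2% of each library with the highest Scrublet doublet scores (expected rate 7%) were left out. That share was set in advance to the average removal rate the study reports. Seurat 5.3.0 in R 4.3.3 clustered the cells on 2944 variable genes without members and pathway genes. Each cluster took the name of the class with the highest mean score over 6 markers. At least 3 markers had to have a UMI in 5% of its cells, and no other class could have more markers among its 10 leading genes. A cluster also stayed unnamed if its median UMIs were under 1/3 of those of its libraries and no marker of the name was among its leading genes. A sub-cluster also stayed unnamed if a class other than its parent had more markers among its leading genes. Endothelial and mural cells were sub-clustered at resolution 1, chosen after 0.5 had joined venous-like and lymphatic-like cells. UMIs were summed per class and library, and means over libraries used those with at least 20 cells. Ratios have exact conditional binomial intervals, levels exact Poisson intervals and shares of cells Clopper-Pearson intervals. Members and pathway genes were counted as higher or lower at a fold of 1.5 with at least 50 UMIs in either sum.

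All 10 members are named, with the 3 genes most like each by Pearson r of log2(CPM + 10) among genes with at least 200 UMIs. The rule also covered the highest and lowest gene of each pathway list, of which only some are named. A gene named beyond this rule was chosen after its values were seen. On independent Poisson counts simulated for the TAC-4w and sham sections, 95.4% of intervals over 10857 genes held the true ratio, and 98% of 200 genes changed by a fold of 2 passed 1.5. The intervals are exact for such counts, so this checks the calculation only. Spread between spots, sections or animals was not simulated. Python 3.11.15, scanpy 1.11.5 and scipy 1.17.1 were used. Alternatives covered the total used for scaling, the filters on cells and spots, the naming, the clustering, thinning, the fold and the UMI minimum.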

Additional observations from a re-analysis of the deposited data

Results flagged for a closer look

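Vegfd in fibroblast-like cells differed in direction between times after TAC, with ratios to sham that were above 1 first (TAC-2w 1.39, TAC-4w 2.00) and below it later (TAC-6w 0.652). At TAC-6w the ratio was 0.532 in cluster 0 and 1.40 (1.17 to 1.67) in cluster 1, whose share of the class was 23.6% against 53.3% in sham. Nrp2 in the sections likewise lay below sham at TAC-2w (0.635) and TAC-4w (0.428) and above it at TAC-6w (1.63). Each time point is 1 sample, and the differences between times were not tested.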

How the results depend on the processing

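No paired analysis was possible because each condition has 1 section and 1 library. Leaving out each library in turn kept 6 members with their highest mean level in endothelial cell-like cells (6 to 6) and 4 ligands elsewhere (4 to 4). In the sections, leaving mitochondrial and ribosomal-RNA-like features out of the total, with or without haemoglobin genes, gave 5 members lower at TAC-4w and 0 higher and 1 lower at TAC-6w. The mean over spots gave 1 higher at TAC-4w (Vegfd), spots of 20000 to 30000 UMIs gave 3 lower at TAC-2w, and a fold of 2 gave 0 lower at TAC-2w and 0 higher at TAC-6w. With endothelial markers as the total, added after the data were seen, 1 was higher (Vegfb) and 0 lower at TAC-2w, 1 higher at TAC-4w (Vegfd), and 0 higher and 2 lower (Pgf and Flt1) at TAC-6w. Shares of all genes are given only for the total without mitochondrial and ribosomal-RNA-like features. The counts under the other section alternatives therefore only describe the members.

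In endothelial cell-like cells, 1 member (Kdr) was higher at TAC-2w with doublets kept. At TAC-6w 2 were higher (Vegfc and Pgf) with doublets kept, with no filter on barcodes, with cells named by their own score and with a minimum of 1 UMI. The unfiltered barcodes gave 1 lower at TAC-6w, and the minimum of 1 UMI gave 2 lower at TAC-4w. A mitochondrial share under 5% gave 0 lower at TAC-2w and TAC-4w, and 3 higher and 1 lower at TAC-6w. The mean over cells gave 1 higher (Pgf) and 0 lower at TAC-2w and 2 higher at TAC-4w, with Kdr reversed to 0.966 there. Thinning to 1000 UMIs gave 1 higher and 0 lower at TAC-2w, 2 higher and 0 lower at TAC-4w and 0 higher at TAC-6w. The minimum of 50 UMIs in either sum stayed in force on the thinned counts, which are smaller. Vegfb at TAC-4w had 32 UMIs against 65 in sham before thinning. A member under the minimum could not be counted, so for members with few UMIs a lower count need not mean a changed ratio. Flt1 and Kdr, at means of 1386 and 817 CPM in thinned endothelial cell-like cells, were above it at TAC-4w. The mean over cells, which left the UMI counts unchanged, also gave 2 higher at TAC-4w. A fold of 2 gave 0 and 0 at TAC-2w, 2 higher at TAC-4w and 1 lower at TAC-6w. The next choices were added after the data were seen. Capillary-like cells alone gave 0 and 0 at TAC-2w, 1 higher and 0 lower at TAC-4w and 0 higher at TAC-6w, and reversed Kdr at TAC-2w (0.799) and TAC-4w (0.923), Flt4 at TAC-4w (0.913) and Nrp2 at TAC-4w (0.770). Leaving out the unnamed sub-clusters gave 2 higher at TAC-6w (Vegfc and Nrp2). In capillary-like cells the minimum of 50 UMIs also limited the counts, as Vegfa at TAC-4w had 13 UMIs against 7 in sham and could not be counted. The number of members compared and the shares of all genes are not given for these alternatives. Apart from this minimum, the cause of the changed counts and ratios was not tested.

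Of single ratios under all alternatives, 560 moved by less than their counting interval, 156 by more, and 5 reversed, which was counted only for ratios past 1.5-fold under the main settings. Smaller ratios that crossed 1, such as those of Vegfa in the sections, are among the others. The leading class of Vegfd became mural cell-like at a mitochondrial share under 5% (34.2 CPM) and mesothelial cell-like with cells named by their own score (36.5 CPM), where that of Pgf became glial cell-like (205 CPM). Resolution 0.5, RPCA integration, members among the variable genes and leaving out spots under 500 UMIs moved no count past 1.5 times. Sums under 50 UMIs, such as Vegfd in endothelial cell-like cells, limit what could be compared.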
